A study of Homo sapiens with 16 samples.

Results

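ATF4 is a transcription factor that cells use to answer shortage of amino acids, and the 10 genes described here are ATF4 itself with 9 genes that it is known to activate. They were taken by name from a table of 60642 gene symbols measured by RNA sequencing in LNCaP cells, and all 10 were present and passed the filter on low values. LNCaP is an established human prostate cancer line that grows in response to androgens. The cells were grown for 72 h with 5% fetal bovine serum and kept for a further 48 h with 5% charcoal-stripped serum, which is poor in steroids, and were then treated for 48 h. Groups were named VEH (ethanol and DMSO, the solvents, only), DHT (10 nM dihydrotestosterone, an androgen), BIC.VEH, ENZ.VEH and APA.VEH (10 µM bicalutamide, enzalutamide or apalutamide without DHT) and BIC.DHT, ENZ.DHT and APA.DHT (the same drugs together with 10 nM DHT). The 3 drugs are antagonists of the androgen receptor. Each of the 8 groups held 2 libraries, numbered replicate 1 and 2 in the labels, and all groups shared the serum depletion, the single cell line and the single dose and time.

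Each value is in TPM, the unit of transcript abundance given by RSEM, a level that is scaled for gene length and for the library total, so that levels can be compared between genes. The deposited TPM tables keep no read totals, so depth behind single values is unknown, and the labels give the same approximate yield for every library. Between 14652 and 15360 genes reached 1 TPM in each library. The labelled line was checked on its markers: the luminal keratins KRT8 and KRT18 were at 546 TPM or more and 452 TPM or more in every library, whereas PTPRC (leukocytes), PECAM1 (endothelium), KRT5 and TP63 (basal epithelium) did not pass 0.16 TPM and CD3E (T cells) was listed at 0. The mesenchymal and macrophage genes COL1A1 (11.4 to 32.6 TPM), VIM (8.12 to 22.3 TPM), COL3A1 (0.83 to 4.21 TPM) and CD68 (0.92 to 12.1 TPM) were detected, and COL1A1 was called lower in DHT than in VEH (-1.07 on the log2 scale). Their part in the results below was not tested. KLK3, which encodes prostate-specific antigen and is induced by androgen, averaged 38.5 TPM in VEH and 3262 TPM in DHT. The 2 DHT libraries stood apart from one another. Mitochondrially encoded transcripts took 22.3% of the TPM total in DHT replicate 1 and 14.7% in DHT replicate 2, the highest and lowest shares of the 16 libraries. DHT replicate 1 also held the lowest level of 4 of the 10 genes, where 15.6% of all genes tested had their lowest level there, and DHT replicate 2 the highest level of 5 of them, against 19.9% of all genes. The dependence of the results on either library is therefore given below.

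When an amino acid is scarce, uncharged transfer RNA activates the kinase GCN2, which phosphorylates the translation initiation factor eIF2. Other kinases do the same in response to unfolded protein in the endoplasmic reticulum, to low heme or to viral RNA. General translation then slows while the ATF4 message is translated more efficiently, so the amount of ATF4 protein is set largely by translation and is not measured by RNA levels. ATF4 binds, often as a dimer with a C/EBP protein, to C/EBP-ATF response elements and raises genes that make and import amino acids, together with stress regulators.

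The positions of the genes were read from RefSeq on GRCh38.p14, the build family that the authors aligned to. ATF4 lies at chr22:39520559-39522686, TRIB3 at chr20:380760-397559, CHAC1 at chr15:40953471-40956512, PSAT1 at chr9:78297125-78330093, PHGDH at chr1:119711934-119744215 and SESN2 at chr1:28259518-28282491, and no other annotated gene overlaps any of these 6. DDIT3 at chr12:57516588-57520517 overlaps the methionyl-tRNA synthetase gene MARS1 and 2 further loci. ASNS at chr7:97851677-97928441 overlaps the readthrough locus CZ1P-ASNS, SHMT2 at chr12:57229711-57234935 overlaps COXFA4L2, and SLC7A5 at chr16:87830023-87869507 overlaps its antisense gene SLC7A5-AS1. The libraries were stranded, but whether strand was used in quantification is not given in the sources used here, so values of the 4 overlapped genes may include reads of their neighbours. Loci named as copies of these genes were low. ATF4P4 ran from 0.65 to 1.15 TPM, ASNSP1 from 0.49 to 2.76 TPM and SLC7A5P1 from 0.11 to 1.00 TPM. The last of these came near SLC7A5 itself, whose lowest value was 1.49 TPM.

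The core of the C/EBP-ATF response element, TGATGNAA read on both strands, was searched in RefSeq promoter windows of 300 bases around gene starts (GRCh38.p14). It occurred in 1270 of 35116 windows, or 3.62%. Windows were matched for 9 of the 10 genes (14 windows), and the core was found in those of ASNS and CHAC1. The 30 bases around each match are shown because they are the only matches among these genes; the 8 bases of the core are in capitals, and both runs are written 5′ to 3′ on the minus strand of the genome.
ASNS, chr7:97872458-97872487: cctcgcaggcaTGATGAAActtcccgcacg
CHAC1, chr15:40953251-40953280: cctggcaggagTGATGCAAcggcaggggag
In ASNS the core reads along the gene, 68 to 61 bases upstream of the start, and in CHAC1 it reads on the opposite strand, 209 to 202 bases upstream. A match describes letters only. Binding was not measured.

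The 10 genes covered a wide range of levels. Medians over the 16 libraries were 329 TPM for ATF4, 280 TPM for PHGDH, 203 TPM for SHMT2, 83.8 TPM for PSAT1, 72.9 TPM for ASNS, 44.4 TPM for DDIT3, 36.6 TPM for TRIB3, 16.3 TPM for SESN2 and 5.26 TPM for CHAC1. SLC7A5, which encodes the light chain LAT1 of the large neutral amino acid transporter, was lowest, between 1.49 and 3.26 TPM. The ranges of ATF4, PHGDH and SHMT2 overlapped one another, as did those of PSAT1, ASNS and DDIT3 and those of DDIT3 and TRIB3, so the order of these neighbours does not hold in every library. In ENZ.DHT replicate 1, for example, DDIT3 at 124 TPM stood above PSAT1 and ASNS, both at 71.3 TPM. ATF4 varied least, 1.5-fold between its lowest and highest library, and DDIT3 varied most, 4.71-fold. The plot of levels by library shows each value.

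**Figure D1:**
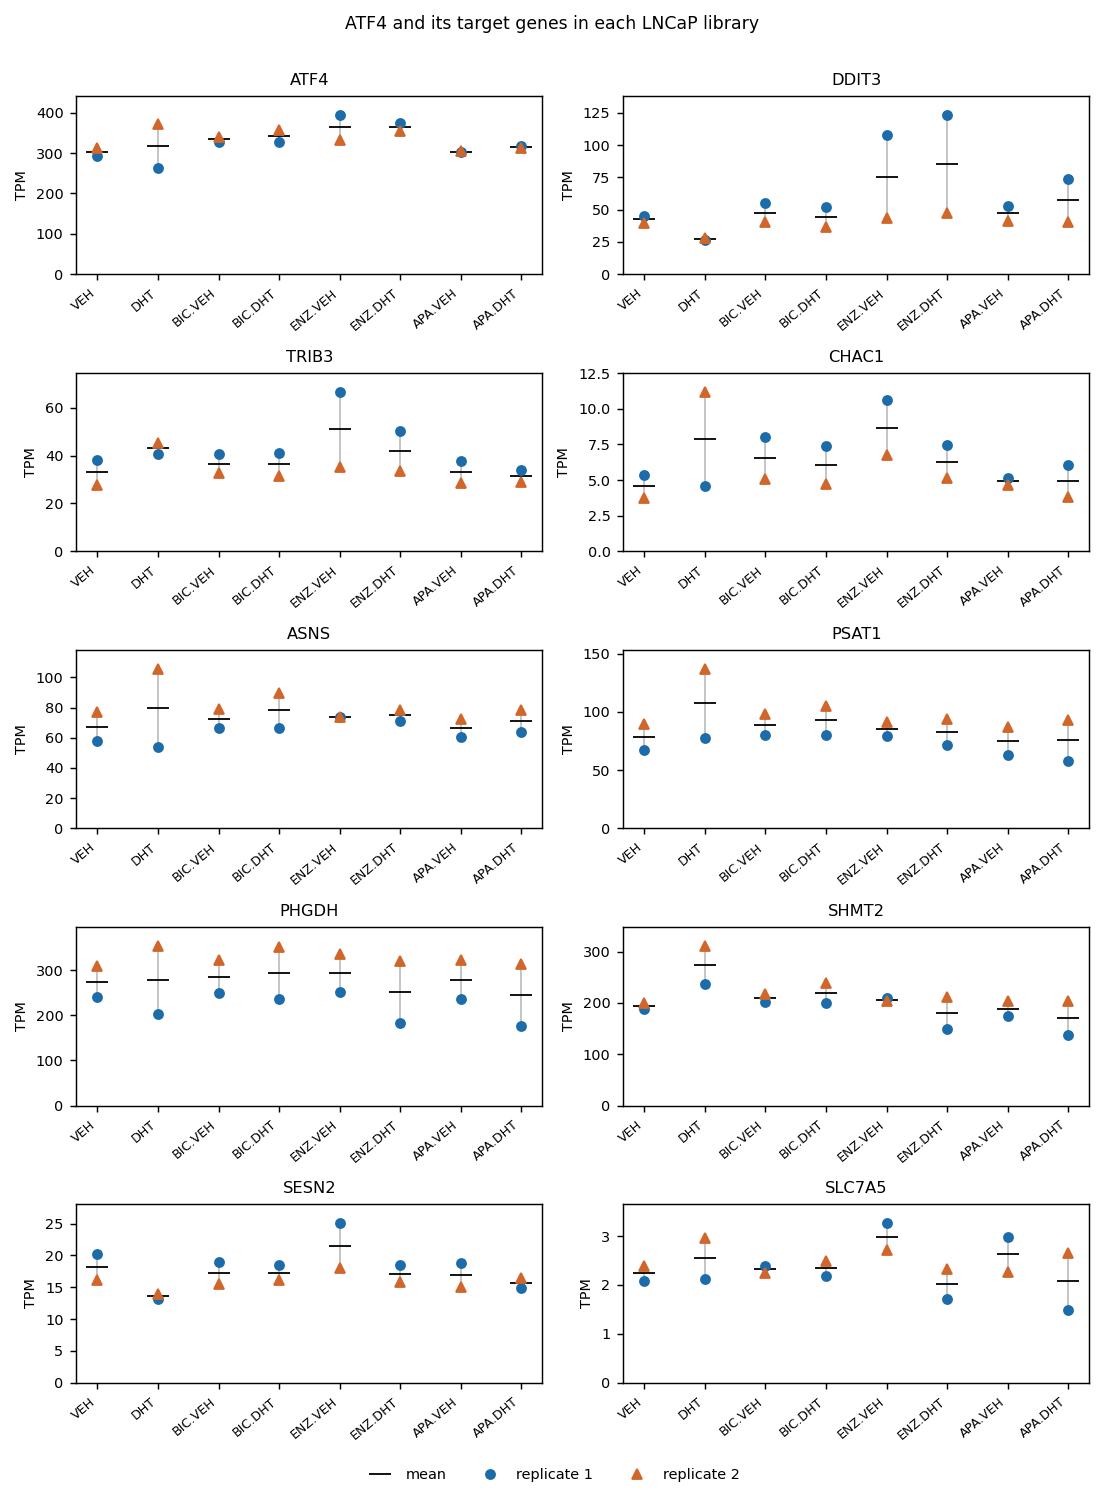
Level of each of the 10 genes in TPM (vertical axis, linear from 0) in the 8 treatment groups; circles are replicate 1, triangles replicate 2 and bars the mean of both. DDIT3 stands highest in replicate 1 of ENZ.DHT at 124 TPM and lowest in DHT, while PHGDH is higher in replicate 2 in all 8 groups.

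The first comparison asks what androgen did to these genes in serum-depleted cells. Between DHT and VEH none of the 10 genes was called by limma at an adjusted p under 0.05, against a background of 10.3% of all 16636 genes tested (3.63% higher and 6.64% lower in DHT; 4182 genes had an unadjusted p under 0.05). When the replicate number was added to the fit as a block, which removes differences shared by all libraries of 1 number, SHMT2 and PSAT1 were called higher in DHT; with the block the background was 27.4% (10.6% higher, 16.8% lower). These calls depended on the DHT library: with the block and without DHT replicate 1, 4 genes were called higher (CHAC1, PSAT1, TRIB3 and ASNS), and without DHT replicate 2 none was called higher and SESN2 was called lower. The median difference of the 10 genes was 0.15 on the log2(TPM + 1) scale, and that of all genes tested was -0.10.

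SHMT2 and PSAT1 both act in serine and glycine metabolism. SHMT2 is the mitochondrial serine hydroxymethyltransferase that splits serine into glycine and a one-carbon unit. It was at 187 and 201 TPM in VEH and at 237 and 310 TPM in DHT, so the groups did not overlap. How many of all genes tested did not overlap between groups was not counted, here or in the comparisons below. The fitted difference of SHMT2 was 0.48 on the log2 scale (SE 0.21, limma adjusted p = 0.19, and with the replicate block adjusted p = 0.024). Without DHT replicate 1 the log2 fold change of SHMT2 was 0.68, and without DHT replicate 2 it was 0.29. With the block it was 0.55 and 0.41 in these cases, and was called in neither (limma adjusted p = 0.058 and 0.14). PSAT1, the phosphoserine aminotransferase of serine synthesis, was at 67.4 and 89.2 TPM in VEH and at 77.7 and 137 TPM in DHT, and here the groups overlapped. Its fitted log2 difference of 0.41 (SE 0.30, limma adjusted p = 0.44, and with the block adjusted p = 0.043) rested on DHT replicate 2: it was 0.81 without DHT replicate 1 and 0.0036 without DHT replicate 2. PHGDH, the dehydrogenase that opens the same pathway, had a log2 fold change of -0.025, and of 0.11 when libraries were scaled by median ratios. ASNS, which makes asparagine from aspartate and glutamine, had 0.18. Both changed sign with the library left out: PHGDH had 0.37 without DHT replicate 1 and -0.42 without DHT replicate 2, and ASNS 0.65 and -0.30.

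ATF4 itself differed little. It was at 292 and 314 TPM in VEH and at 263 and 372 TPM in DHT, with a log2 fold change of 0.05 (95% confidence interval -0.29 to 0.38), which was 0.30 without DHT replicate 1 and -0.20 without DHT replicate 2. The stress regulators did not share a direction. DDIT3, which encodes the pro-apoptotic factor CHOP, was at 45.3 and 39.8 TPM in VEH and at 26.2 and 27.7 TPM in DHT, both DHT libraries lying below both VEH libraries (log2 fold change -0.64, SE 0.47, limma adjusted p = 0.44). SESN2, sestrin 2, a leucine sensor that restrains the growth kinase mTORC1, also lay lower in both DHT libraries, 13.2 and 13.96 TPM against 20.3 and 16.1 TPM (log2 fold change -0.39, SE 0.19, limma adjusted p = 0.23). TRIB3, a pseudokinase induced by ATF4 that feeds back on it, lay higher, 40.9 and 45.5 TPM in DHT against 38.2 and 27.9 TPM in VEH (log2 fold change 0.39, SE 0.30, limma adjusted p = 0.45). CHAC1, an enzyme that degrades glutathione, was at 4.57 and 11.2 TPM in DHT against 5.38 and 3.74 TPM in VEH, so its log2 fold change of 0.58 came from 1 library: it was 1.15 without DHT replicate 1 and 0.02 without DHT replicate 2. SLC7A5 had 0.12, and -0.05 without DHT replicate 2. With DHT replicate 1 and then replicate 2 left out, DDIT3 had -0.60 and -0.68, SESN2 -0.35 and -0.43 and TRIB3 0.47 and 0.32. Their direction could not change in these fits, as both DHT libraries lay on the same side of both VEH libraries.

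The next comparison sets each antagonist with DHT against DHT alone. The same 2 DHT libraries enter all 3 of these comparisons and the one above, so their values are given side by side and are not independent of one another. None of the 10 genes was called by limma in any of the 3 without the block. Against this, 3.13% of all genes were called with bicalutamide (1.45% higher, 1.68% lower; 2513 genes at an unadjusted p under 0.05), 9.65% with enzalutamide (4.74% higher, 4.91% lower; 4380 genes) and 8.36% with apalutamide (4.25% higher, 4.11% lower; 4105 genes). With the replicate block, none of the 10 was called with bicalutamide, DDIT3 and SHMT2 were called with enzalutamide, and DDIT3, SHMT2 and PSAT1 were called with apalutamide. With the block and without DHT replicate 1, 1, 3 and 4 of the 10 genes were called with bicalutamide, enzalutamide and apalutamide, all lower than DHT, and without DHT replicate 2 the counts were 0, 3 (all higher) and 2 (1 higher, 1 lower). CHAC1 with enzalutamide was called in opposite directions in these fits, at -0.997 without DHT replicate 1 and at 0.60 without DHT replicate 2. The backgrounds with the block were 13.3% (6.5% higher, 6.82% lower; 4576 genes at an unadjusted p under 0.05) for bicalutamide, 29.2% (13.3% higher, 15.9% lower) for enzalutamide and 27.3% (13.2% higher, 14.1% lower) for apalutamide.

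DDIT3 was the gene that differed most. It was at 26.2 and 27.7 TPM in DHT, and at 51.8 and 36.4 TPM in BIC.DHT, 124 and 47.6 TPM in ENZ.DHT and 74.1 and 40.5 TPM in APA.DHT. All 6 libraries with an antagonist and DHT lay above both DHT libraries, and in each of these groups replicate 1 was the higher. The same 2 DHT libraries serve for all 6, and the share of all genes separated in this way was not counted. The log2 fold change with enzalutamide was 1.48 (SE 0.47, 95% confidence interval 0.44 to 2.52, limma adjusted p = 0.076, and with the block adjusted p = 0.0045). Leaving out ENZ.DHT replicate 1 gave 0.80 and leaving out ENZ.DHT replicate 2 gave 2.16, so the size depended on the library. The direction could not change, as both ENZ.DHT libraries lay above both DHT libraries. Leaving out either DHT library gave 1.44 and 1.52, and with the block 1.08 (limma adjusted p = 0.057 without DHT replicate 1) and 1.87 (limma adjusted p = 0.0054 without DHT replicate 2). With apalutamide the log2 fold change of DDIT3 was 1.00 (SE 0.47, limma adjusted p = 0.22, and with the block adjusted p = 0.032), and it was 0.57 without APA.DHT replicate 1 and 1.43 without APA.DHT replicate 2. With the block it was not called without DHT replicate 1 (0.60, limma adjusted p = 0.26). With bicalutamide it was 0.67 (SE 0.47, limma adjusted p = 0.58, and with the block adjusted p = 0.18).

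SHMT2 differed in the opposite direction. Against 237 and 310 TPM in DHT, it was at 149 and 211 TPM in ENZ.DHT and at 137 and 203 TPM in APA.DHT, with no overlap in either comparison. BIC.DHT, at 199 and 239 TPM, overlapped DHT. The log2 fold change of SHMT2 was -0.61 with enzalutamide (SE 0.21, limma adjusted p = 0.10, and with the block adjusted p = 0.0074), -0.69 with apalutamide (SE 0.21, limma adjusted p = 0.071, and with the block adjusted p = 0.0040) and -0.31 with bicalutamide (SE 0.21, limma adjusted p = 0.57). Without DHT replicate 2 the values with enzalutamide and apalutamide were -0.42 and -0.50, and without DHT replicate 1 they were -0.80 and -0.89. With the block, SHMT2 was called with apalutamide with either DHT library left out (limma adjusted p = 0.018 and 0.038), and with enzalutamide only without DHT replicate 1 (limma adjusted p = 0.027, against 0.059 without DHT replicate 2). Leaving out 1 library of the antagonist moved them as well, between -0.36 (without replicate 1) and -0.86 (without replicate 2) for enzalutamide and between -0.41 and -0.98 for apalutamide.

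PSAT1 was at 71.3 and 94.1 TPM in ENZ.DHT and at 58.0 and 93.0 TPM in APA.DHT, and both groups overlapped the DHT pair of 77.7 and 137 TPM. Within each replicate number PSAT1 was lower with apalutamide than with DHT alone, by 0.42 in replicate 1 and by 0.55 in replicate 2 on the log2 scale (log2 fold change -0.48, limma adjusted p = 0.35, and with the block adjusted p = 0.021). Without DHT replicate 2 the log2 fold change was -0.08, and without DHT replicate 1 it was -0.89. With the block these became -0.28, not called, and -0.69 (limma adjusted p = 0.0092). For CHAC1, ASNS and ATF4 the 2 replicate numbers went opposite ways with all 3 antagonists, higher than DHT in replicate 1 and lower than DHT in replicate 2. The levels of these 3 genes in DHT replicate 2, with 11.2, 105 and 372 TPM, were above those of every BIC.DHT, ENZ.DHT and APA.DHT library except for ATF4 in ENZ.DHT replicate 1, at 376 TPM. SESN2 lay above both DHT libraries in all 6 libraries with an antagonist and DHT, at 14.9 to 18.5 TPM, and its log2 fold changes of 0.19 to 0.32 were not called in either fit. The plot of fold changes shows the 4 comparisons together.

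**Figure D2:**
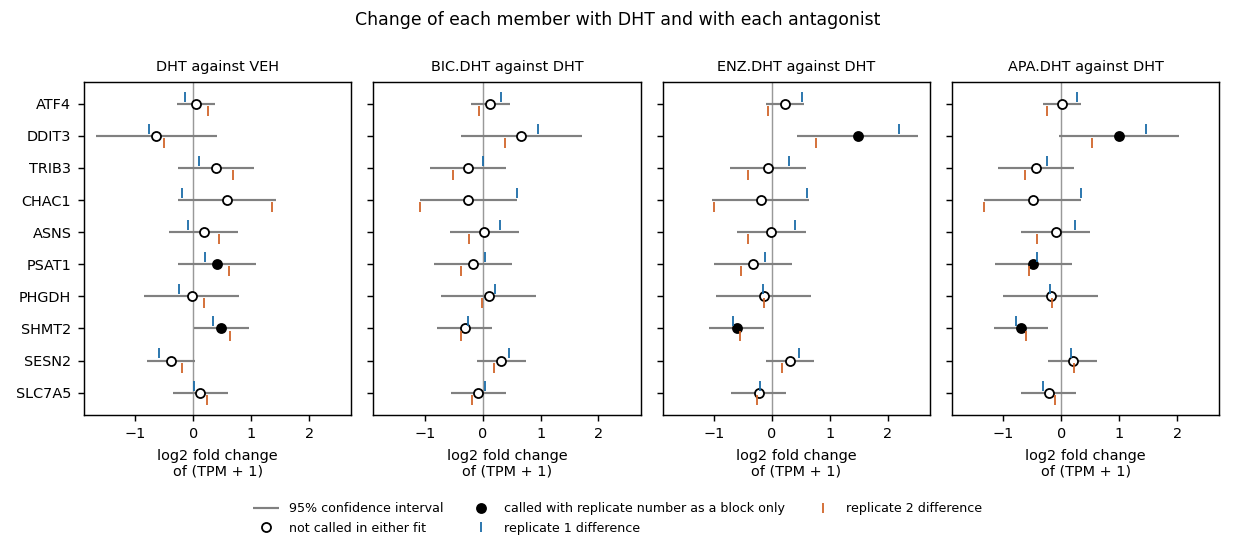
Log2 fold change of (TPM + 1) for the 10 genes in DHT against VEH and in each antagonist with DHT against DHT alone. Circles are limma estimates with 95% confidence intervals of the fit without the block. They are filled where the gene was called with the replicate block only. Ticks are the differences within replicate 1 and within replicate 2. DDIT3 with enzalutamide lies at 1.48 and SHMT2 with apalutamide at -0.69, and the 2 ticks of CHAC1 fall on opposite sides of 0 in all 4 panels.

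Without androgen the antagonists were compared with VEH. None of the 10 genes was called by limma, with or without the block, and few genes were called at all: 0% of all genes with bicalutamide (194 genes at an unadjusted p under 0.05), 0% with enzalutamide (139 genes) and 0.00601% with apalutamide (151 genes). In ENZ.VEH the fitted difference was above 0 for all 10 genes, with a median of 0.24 (for 9 of 10 with either ENZ.VEH library left out, and for 7 of 10 without VEH replicate 1), while the median of all genes tested was 0.00 to 2 decimals. The largest were CHAC1 at 0.79 (SE 0.38), with 10.6 and 6.74 TPM in ENZ.VEH against 5.38 and 3.74 TPM in VEH, DDIT3 at 0.68 (SE 0.47) and TRIB3 at 0.56 (SE 0.30). The last 2 rested on replicate 1. DDIT3 was at 108 and 43.6 TPM in ENZ.VEH against 45.3 and 39.8 TPM in VEH, TRIB3 at 66.7 and 35.3 TPM against 38.2 and 27.9 TPM, and without ENZ.VEH replicate 1 the values were 0.04 for DDIT3, 0.11 for TRIB3 and 0.49 for CHAC1. Replicate 1 of ENZ.VEH held the highest level of 4 genes in the whole series, ATF4 at 395 TPM, TRIB3 at 66.7 TPM, SESN2 at 25.0 TPM and SLC7A5 at 3.26 TPM. Over all genes tested, 16.6% had their highest level in that library and 19.9% in DHT replicate 2. The medians of the 10 genes were 0.13 with bicalutamide and 0.01 with apalutamide.

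In the presence of an antagonist, DHT made no difference that was called in any of the 10 genes, with or without the block. Of all genes, 0% were called between BIC.DHT and BIC.VEH (234 genes under 0.05 before adjustment), 0.00601% between ENZ.DHT and ENZ.VEH (541 genes) and 0.00601% between APA.DHT and APA.VEH (408 genes). SHMT2, for example, had log2 fold changes of 0.06 with bicalutamide (95% confidence interval -0.42 to 0.53), -0.22 with enzalutamide (-0.69 to 0.25) and -0.17 with apalutamide (-0.64 to 0.30). The difference between these responses and the DHT response without an antagonist was tested as an interaction. None of the 10 genes was called by limma, against 0.986% of all genes for bicalutamide (1716 genes at an unadjusted p under 0.05), 1.63% for enzalutamide (2163 genes) and 1.42% for apalutamide (2184 genes). SHMT2 had the interaction with enzalutamide nearest to a call, -0.70 (SE 0.30, limma adjusted p = 0.36). With the block it was called (SE 0.19, adjusted p = 0.045), where 9.91% of all genes were called. With apalutamide the interaction of SHMT2 was -0.65 (limma adjusted p = 0.39, and with the block adjusted p = 0.057) and with bicalutamide -0.43 (0.75; 0.24).

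The 3 antagonists were also compared with one another at the same dose and time, in 3 pairs with DHT and 3 pairs without it. Enzalutamide and apalutamide share a diarylthiohydantoin core that bicalutamide lacks. None of the 10 genes was called by limma in any of the 6 pairs, in which 0.00601% (ENZ.DHT against BIC.DHT), 0% (APA.DHT against BIC.DHT, with 483 genes under 0.05 before adjustment), 0.00601% (APA.DHT against ENZ.DHT), 0% (ENZ.VEH against BIC.VEH, with 297 genes), 0.012% (APA.VEH against BIC.VEH) and 0.00601% (APA.VEH against ENZ.VEH) of all genes were called. The intervals, which come from the fit without the block, were wide. With the block the SE was 0.30 in place of 0.47 for DDIT3 and 0.14 in place of 0.21 for SHMT2, and none of the 10 genes was called either. DDIT3 differed by 0.81 between ENZ.DHT and BIC.DHT (95% confidence interval -0.23 to 1.85) and by -0.48 between APA.DHT and ENZ.DHT (-1.52 to 0.56). SHMT2 differed by -0.38 between APA.DHT and BIC.DHT (-0.85 to 0.09) and by -0.08 between APA.DHT and ENZ.DHT (-0.56 to 0.39). These intervals do not show that the compounds act alike on these genes.

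The most regular difference in the 10 genes was the one between the replicate numbers. It sets 8 libraries against 8, where a treatment comparison sets 2 against 2, so counts of calls differ in precision and do not compare sizes. Over the 8 groups, with the group as a term in the fit, 6 of the 10 genes were called by limma, 4 higher and 2 lower in replicate 2, where 40.2% of all genes were called (23.4% higher, 16.9% lower). These p-values compare 8 pairs of libraries that carry the same 2 numbers, so they describe these libraries and not further cultures. The genes that make amino acids were higher in replicate 2. PHGDH was higher in 8 of 8 groups, with a mean of 222 ± 30.04 TPM (SD, n = 8) in replicate 1 and 329 ± 16.5 TPM in replicate 2 (log2 difference 0.57, SE 0.07, limma adjusted p = 0.00010). PSAT1 was higher in 8 of 8 groups (0.45, SE 0.07), and ASNS (0.34, SE 0.09) and SHMT2 (0.26, SE 0.07) in 7 of 8 groups.

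The stress regulators lay the other way. DDIT3 was lower in replicate 2 in 7 of 8 groups, with 67.1 ± 32.95 TPM (SD, n = 8) in replicate 1 and 39.6 ± 5.80 TPM in replicate 2 (log2 difference -0.61, SE 0.15, limma adjusted p = 0.0083). TRIB3 was lower in replicate 2 in 7 of 8 groups as well (-0.38, SE 0.09, limma adjusted p = 0.0074). DHT was in each case the group that went the other way. CHAC1 had -0.27 (limma adjusted p = 0.25) and SESN2 -0.19 (limma adjusted p = 0.0504). With both DHT libraries left out, an alternative chosen after the data were seen, CHAC1 was called at -0.47 (limma adjusted p = 0.0011) and SESN2 at -0.23 (limma adjusted p = 0.029), and 8 of the 10 genes were called, where 37.8% of all genes were called in the same fit. ATF4 (0.05) and SLC7A5 (0.11) were not called with or without the DHT libraries. Genes of dividing cells moved with the same split: all 8 of a fixed list (MKI67, TOP2A, CCNB1, BUB1, PLK1, MCM2, MCM5 and PCNA) were called higher in replicate 2, with a median log2 difference of 1.48, and MKI67 went from a mean of 3.55 TPM to 11.7 TPM. The same list had a median log2 fold change of 1.19 in DHT against VEH (0 of 8 called, 7 of 8 with the block). Against DHT alone its medians were -0.56, -1.48 and -1.24 in BIC.DHT, ENZ.DHT and APA.DHT, with 0 of 8 called in each. With the block 1, 8 and 8 were called lower, where 6.82%, 15.9% and 14.1% of all genes were called lower. Other measures moved with the split as well. CD68 was lower in replicate 2 (5.58 to 1.42 TPM, log2 difference -1.32), VIM (0.58) and COL3A1 (0.65) were higher, all called, COL1A1 was not called (-0.09), and the mitochondrial share was higher in replicate 1 in 8 of 8 groups. The part of these markers in the differences of the 10 genes was not tested. In bulk RNA a change in the number of such cells and a change in RNA per cell cannot be told apart. The plot of replicate differences sets both sets of genes side by side.

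**Figure D3:**
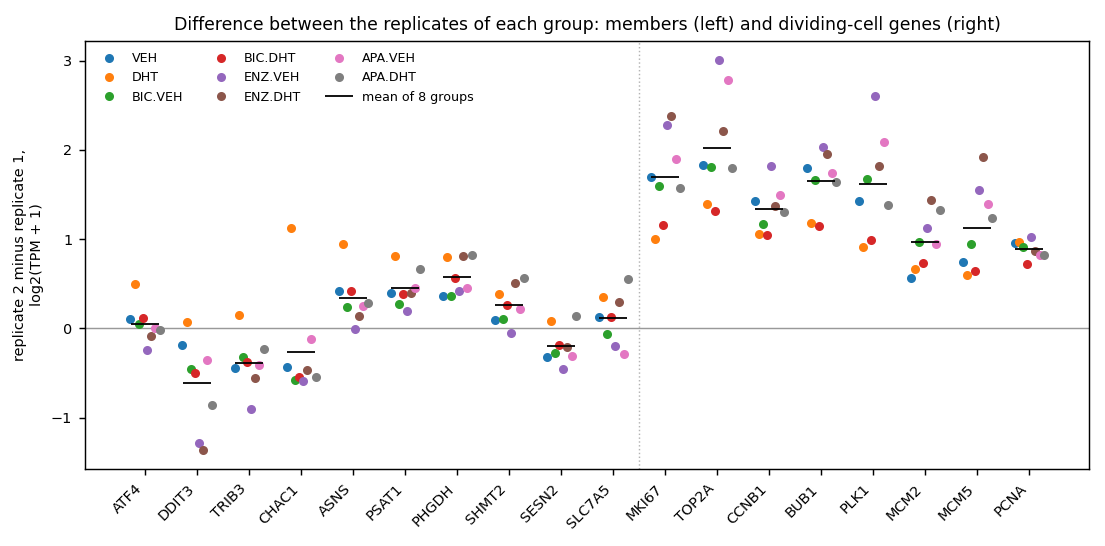
Difference in log2(TPM + 1) between replicate 2 and replicate 1 (vertical axis), 1 point per treatment group and 1 bar for the mean of 8 groups, for the 10 genes (left of the dotted line) and for 8 genes of dividing cells (right). PHGDH and PSAT1 are above 0 in all groups, DDIT3 and TRIB3 are below 0 in 7 of 8, and the dividing-cell genes are above 0 in all groups.

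Across the 16 libraries the log2 levels of the 10 genes differed in how closely they followed one another. Pearson's r was 0.86 between PSAT1 and SHMT2, 0.86 between ASNS and PSAT1 and 0.83 between TRIB3 and CHAC1, while it was -0.71 between DDIT3 and SHMT2. After the mean of each replicate number was removed, r was 0.87, 0.68, 0.83 and -0.60 for these pairs, and that between ATF4 and ASNS went from 0.69 to 0.84. Pairs of TRIB3 or CHAC1 with ASNS or PSAT1 then came closer. For TRIB3, r went from -0.09 to 0.69 with ASNS and from -0.15 to 0.68 with PSAT1. For CHAC1, it went from 0.25 to 0.79 with ASNS and from 0.14 to 0.69 with PSAT1. Other pairs stayed below 0: DDIT3 with PSAT1 (-0.28), PHGDH (-0.23) and SHMT2, and SESN2 with PSAT1 (-0.0095) and SHMT2 (-0.09). DHT replicate 2 held the highest level of CHAC1, ASNS and PSAT1, and r was not computed without it. The r values are descriptions over 16 libraries that share groups, replicate numbers and the TPM scale. Apart from the 10, the genes with the pattern most like the mean of the 10 standardised genes were BDH1 (r = 0.91, 44.0 to 61.4 TPM), SLC6A9, a glycine transporter that is also in the transport list below (r = 0.87, 4.52 to 11.2 TPM), LIF, a cytokine (r = 0.87, 1.57 to 3.59 TPM), SLC25A36 (r = 0.85) and AEN (r = 0.84).

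The 7 lists of related genes were then read in the same way, beginning upstream of ATF4. Their counts in DHT against VEH stand beside 3.63% of all genes called higher and 6.64% called lower, or 10.6% and 16.8% with the replicate block. They rested on both DHT libraries. With either of these left out, EIF2S1, TRIB1, PYCR1, GOT1 and CARS1 were not called in DHT against VEH. The list genes named here were chosen because they were called in that same comparison. A direction kept without 1 of the same DHT libraries is therefore no separate support for them. Of the 13 list genes named here, all kept their direction in DHT against VEH with either DHT library left out, but 7 were called without DHT replicate 1 and 3 without DHT replicate 2, and ASS1 and SLC1A5 were called in both cases. Of 15 genes for eIF2 kinases, GCN2 regulators, eIF2 and eIF2B subunits and eIF2 phosphatase regulators, 2 were called higher in DHT than in VEH by limma and none lower (3 higher with the block). EIF2S1, the eIF2 subunit that the kinases phosphorylate, was at 109 and 143 TPM in VEH and at 216 and 257 TPM in DHT (log2 fold change 0.91, SE 0.22, adjusted p = 0.022), and EIF2S2 had 0.48. Both were called lower than DHT with enzalutamide (-1.05 and -0.44) and with apalutamide (-1.03 and -0.42), and neither was called with bicalutamide in this fit, in which none of the 15 was called. With enzalutamide and with apalutamide, EIF2S1 was called without DHT replicate 1 but not without DHT replicate 2, and EIF2S2 in neither case. With the block, 3, 7 and 5 of the 15 were called lower than DHT with bicalutamide, enzalutamide and apalutamide, against 6.82%, 15.9% and 14.1% of all genes. Of 16 partners of ATF4 and other stress factors, 15 were tested. None was called higher in DHT and JDP2 (-1.002), a dimer partner that represses, and TRIB1 (-0.98), a pseudokinase related to TRIB3, were called lower. With the block 3 of the 15 were called higher and 5 lower.

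Among genes of amino acid supply, no gene of serine, glycine and one-carbon metabolism outside the 10 was called between DHT and VEH in 7 tested (3 higher with the block). In the list of other amino acid synthesis, 2 of 9 tested were called higher and 1 lower, with or without the block. PYCR1, which makes proline, was at 109 and 117 TPM in VEH and at 214 and 233 TPM in DHT (log2 fold change 0.98, SE 0.23, limma adjusted p = 0.019), and GOT1, an aspartate aminotransferase, had 0.44. ASS1, which joins citrulline and aspartate on the route to arginine, was at 167 and 164 TPM in VEH and at 76.8 and 99.2 TPM in DHT (-0.92, SE 0.13, limma adjusted p = 0.0017). ASS1 was called higher than in DHT alone with each antagonist, by 0.76 with bicalutamide, 0.83 with enzalutamide and 0.84 with apalutamide (the first was not called without DHT replicate 1).

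Amino acid transporters other than SLC7A5 had 2 of 9 called higher in DHT and none lower, with or without the block, and a median log2 fold change of 0.47. SLC1A5, the glutamine transporter ASCT2, was at 27.7 and 24.9 TPM in VEH and at 56.6 and 77.4 TPM in DHT (1.301, SE 0.20, limma adjusted p = 0.0021). It was lower than in DHT with each antagonist, by -0.86, -1.10 and -1.32 for bicalutamide, enzalutamide and apalutamide, and was called in all 3, though with either DHT library left out it was not called with bicalutamide, and without DHT replicate 2 it was not called with enzalutamide. SLC43A1, the large neutral amino acid transporter LAT3, was at 3.09 and 4.62 TPM in VEH and at 9.62 and 25.4 TPM in DHT (1.80, SE 0.44, limma adjusted p = 0.025), and its value was 2.46 without DHT replicate 1 and 1.15, not called, without DHT replicate 2. In VEH as well as in DHT it stood above SLC7A5, which encodes LAT1. SLC7A5 was at 2.09 and 2.39 TPM in VEH and at 2.12 and 2.97 TPM in DHT. SLC3A2, the heavy chain that LAT1 needs at the cell surface, named here as its partner after values were seen, ran from 158 to 325 TPM over all libraries.

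In a list of 21 genes of aminoacyl-tRNA synthetases, which load amino acids on transfer RNA, with the tRNA exporter XPOT among them, 3 were called higher in DHT and none lower (9 higher with the block). The fold change was above 0 for 20 of the 21, with a median of 0.29. CARS1 had 0.71, YARS1 0.63 and GARS1 0.60, the last named after its values were seen. Without DHT replicate 2 none of the 21 was called and 15 were above 0. With bicalutamide, enzalutamide and apalutamide 0, 3 and 5 of the 21 were called lower than in DHT, against 1.68%, 4.91% and 4.11% of all genes, and none was called higher. With the block the counts were 4, 9 and 8, against 6.82%, 15.9% and 14.1%. A list of 8 genes of the ATF6 and XBP1 arms of the unfolded protein response held chaperones of the endoplasmic reticulum, HERPUD1 and XBP1 itself. SDF2L1 was called higher in DHT (0.78) and none lower (3 higher with the block). The fold change was above 0 for all 8, with a median of 0.38 (0.41 without DHT replicate 1, 0.36 without DHT replicate 2). In each antagonist with DHT it was below 0 against DHT alone for all 8. With bicalutamide, enzalutamide and apalutamide 1, 2 and 2 were called lower (2, 4 and 5 with the block), beside the same shares of all genes. The plot of the lists gives every tested gene.

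**Figure D4:**
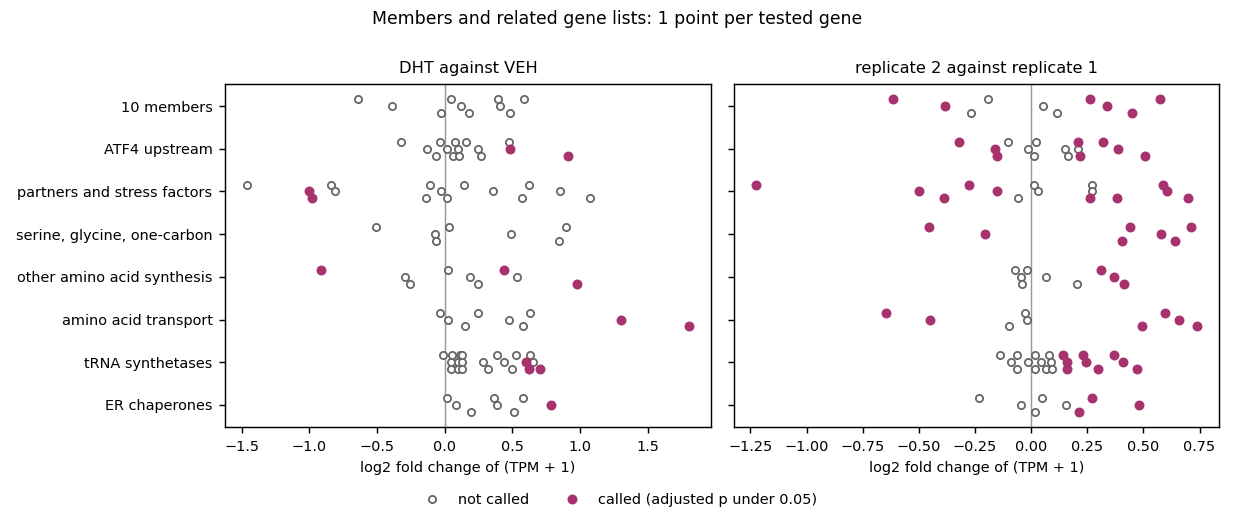
Log2 fold change of (TPM + 1), 1 point per gene, for the 10 genes and 7 related lists in DHT against VEH (left) and replicate 2 against replicate 1 (right); filled points were called by limma at an adjusted p under 0.05. None of the 10 genes is filled on the left and 6 are filled on the right.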

How the data were processed

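RNA from 16 LNCaP libraries (8 groups, 2 replicates each) was selected for polyadenylated transcripts. According to the submitters' processing notes and the methods, the authors used FastQC 0.11.9, Trim Galore 0.6.5, STAR 2.7.2b and RSEM 1.3.3 on GRCh38 and deposited TPM values per gene symbol, without pooling. How several gene identifiers with 1 symbol were combined is not given in the sources used here. TPM is relative: abundant transcripts lower all others.

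Genes with at least 1 TPM in at least 2 libraries (16636 of 60642; 26439 were 0 throughout) were tested as log2(TPM + 1) with limma 3.58.1 (R 4.3.3, trended variance, 8 group means, all 16 libraries) across all genes, with Benjamini-Hochberg adjusted p under 0.05 within each of 19 comparisons called. Fold changes on this scale understate those of low genes. The labels give replicate numbers as biological replicates but name no shared culture. The titles also carry a second number, shared by all libraries of each replicate number, and its meaning is not given. Differences between replicates correlated above 0.1 across genes in 28 of 28 pairs of groups (0.204 to 0.635), so the replicate numbers were taken to pair samples. The fit with this block is given where it changes a call of the 10 genes or a list count given in the text. Confidence intervals are those of the fit without the block. Without knowledge of separate cultures, p-values measure the spread between these samples.

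The 10 genes and all lists were chosen with earlier results of these data known. Named list genes were up to 2 highest and 2 lowest called in DHT against VEH per list. TRIB2, ALDH1L2 and BCAT1 did not pass the filter. Alternatives were a pseudocount of 0.1, no filter, median-ratio scaling, removal of mitochondrially encoded genes, fits of the compared groups only and leaving out libraries (with the block, and for lists, chosen after the data were seen). Scripts were tested on simulated data.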

Additional observations from a re-analysis of the deposited data

Results flagged for a closer look

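In the fit with the replicate block, SHMT2 had a called interaction of enzalutamide with DHT, -0.70 on the log2(TPM + 1) scale (SE 0.19, limma adjusted p = 0.045). It was the 1 call among the 10 genes, where 9.91% of all genes were called in the same fit. SHMT2 was higher in DHT than in VEH within both replicate numbers (by 0.34 and 0.63). Between ENZ.DHT and ENZ.VEH it differed by -0.49 in replicate 1 and by 0.06 in replicate 2. Without the block the interaction had an adjusted p of 0.36 by limma. With the block and DHT replicate 2 left out, none of the 10 genes had this interaction called.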

How the results depend on the processing

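None of the 10 genes was called by limma in any of the 19 comparisons of treatment groups, and this count changed in 4 of them under the alternatives that kept all libraries. With the replicate block it became 2 (DHT against VEH), 2 (ENZ.DHT against DHT), 3 (APA.DHT against DHT) and 1 (the interaction of enzalutamide with DHT), and, with all libraries, the block changed no other call of these genes. With median-ratio scaling it became 1 in each of the first 3, in all cases SHMT2 (adjusted p = 0.046, 0.046 and 0.027), and without mitochondrially encoded genes it became 1 for APA.DHT against DHT. Leaving out 1 library gave 0 to 2 for ENZ.DHT against DHT and 0 to 1 for APA.DHT against DHT, the highest without replicate 2 of the antagonist group. Median-ratio scaling moved the median of all genes in DHT against VEH from -0.10 to 0.01. The block with 1 DHT library left out, chosen after seeing the data, gave 1 to 4 calls for DHT against VEH, 0 to 1 for BIC.DHT against DHT, 3 for ENZ.DHT against DHT, 2 to 4 for APA.DHT against DHT, and 0 to 1, 0 to 2 and 0 to 1 for the interactions of bicalutamide, enzalutamide and apalutamide with DHT. CHAC1 in ENZ.DHT against DHT reversed there, from -0.20 to 0.60 without DHT replicate 2. Between replicates 6 to 8 genes were called under every alternative. Among fold changes of single genes that were called in neither fit, 3 changed sign under other settings and 52 when 1 library was left out, with or without the block. With 2 libraries per group and no read totals, moderate changes of low genes such as SLC7A5 and CHAC1 were hard to detect.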

Other observations

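Of 15 tested partners of ATF4 and stress factors outside the 10, 5 were called higher and 5 lower in replicate 2, beside 23.4% and 16.9% of all genes. The genes below are named after their values were seen. GDF15, a secreted stress cytokine, had a mean of 249 ± 65.5 TPM (SD, n = 8) in replicate 1 and 106 ± 32.8 TPM in replicate 2 (log2 difference -1.23, SE 0.09, limma adjusted p = 7.2e-06). NUPR1 (-0.50), ATF3 (-0.39) and the cystine transporter SLC7A11 (-0.64) were also called lower in replicate 2. In ENZ.VEH, SLC7A11 was at 40.2 TPM in replicate 1 and at 12.6 TPM in replicate 2. SESN1 (0.59) and SESN3 (0.70), the relatives of SESN2, DDIT4 (0.26) and KLHL24 (0.38) were called higher in replicate 2, as was MTHFD2 (0.64), the mitochondrial enzyme that follows SHMT2 in one-carbon metabolism. Of 84 tested genes of the 7 related lists, 39 had their highest level in DHT replicate 2 and 21 in ENZ.VEH replicate 1, beside 19.9% and 16.6% of all genes tested, while 27 had their lowest level in APA.DHT replicate 1 and 22 in ENZ.DHT replicate 1, beside 13.7% and 20.4%.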
